A study of Mus musculus with 56 samples.

Results

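The 10 genes described here, Ptprc, Cd68, Adgre1, Mrc1, Cd163, C1qa, C1qb, C1qc, Csf1r and Lyz2, are markers of leukocytes and mainly of macrophages, read in whole gastrocnemius, a fast calf muscle of the mouse. They were chosen by name out of 15539 genes with read counts, and all 10 were found in the table and passed the filter on low counts. The study bred C57Bl/6 mice on chow in which Elavl1, the gene of the RNA-binding protein HuR, is flanked by loxP sites, and Cre driven by the promoter of the fast-muscle myosin light chain gene Myl1 removes it in skeletal muscle fibres. Floxed littermates without Cre were the controls, so every mouse carried the floxed allele. From 10 to 20 weeks of age each mouse lived with a running wheel or with a locked one, and tissue was taken at an age the labels give as 5 months. There were 7 mice in each of 8 groups, written here as in the labels: MC and FC are male and female controls with a locked wheel, MCE and FCE male and female controls with a running wheel, MH and FH male and female HuR skeletal muscle knockouts with a locked wheel, and MHE and FHE the knockouts with a running wheel.

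Macrophages live in the connective tissue between muscle fibres and around vessels, where they clear debris, present antigen and release growth factors. They depend on signals through the receptor encoded by Csf1r, and the resident cells of healthy muscle commonly carry the scavenger receptors encoded by Mrc1 and Cd163. They are also the main source of C1q, the protein that opens the classical complement pathway and is built from the chains encoded by C1qa, C1qb and C1qc. In whole muscle a lower level of such a gene can come from fewer cells of a type or from less RNA per cell, and the 2 cannot be told apart.

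Total counts ran from 6639782 to 21633091 per mouse with a median of 12380363, and any pair of mice within a group differed beyond counting error, with chi-square values of 3.30 to 46.1 for each degree of freedom. The study reported by qPCR that Elavl1 mRNA was lower in gastrocnemius of the knockouts than of controls. In the counts read here Elavl1 was not lower in the mice labelled HuR knockout: the log2 fold change against controls over the 4 combinations of sex and wheel was 0.13 ± 0.06 (SE), adjusted p = 0.15 by limma, and where the counted reads lie outside the deleted exons this checks nothing. Myl1, the gene whose promoter drives Cre, was lower in the same mice (log2 fold change -0.65 ± 0.11, adjusted p = 5.61e-05), but not in every one: it ran from 7507 to 14050 CPM in controls and from 2320 to 13730 CPM in HuR-labelled mice, with MH12, FH34 and MHE4 at 13730, 13360 and 10820 CPM. The genotype below is therefore that of the labels. The 8 skeletal muscle genes, Acta1 and Ckm among them, summed to between 83390 and 120500 CPM (counts scaled to a common library total) in all 56 mice, whereas the 24 liver genes, Alb among them, ran from 29.5 to 4441 CPM and were highest in mouse FC15.

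Every member had reads in every mouse, and none was at 0. Over the 56 mice the gene with the fewest counts in total was Cd68, a lysosomal glycoprotein of phagocytes, with 4 to 104 counts per mouse and a median of 30.5. The gene with the most was Lyz2, lysozyme of myeloid cells, with 142 to 1372 counts and a median of 401.5. Adgre1, which encodes the macrophage surface antigen F4/80, had a median of 35.5 counts and is therefore, like Cd68, measured with more counting error than the rest. Counts are not compared between genes as levels, because the kit named in the labels reads 3′ ends and the study's methods describe whole transcripts.

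On GRCm38 the C1q genes lie side by side on the minus strand of chromosome 4, with C1qb from 136880129 to 136886187, C1qc from 136889804 to 136893065 and C1qa from 136895917 to 136898803. The other members are spread over 7 chromosomes: Ptprc on 1 (138062861 to 138175708), Mrc1 on 2 (14229392 to 14332057), Cd163 on 6 (124304656 to 124330527), Lyz2 on 10 (117277331 to 117282321), Cd68 on 11 (69664213 to 69666153), Adgre1 on 17 (57358691 to 57483527) and Csf1r on 18 (61100598 to 61132149). All are protein coding. Csf1r overlaps Hmgxb3 on the opposite strand at its 3′ end, a microRNA gene lies inside Mrc1, and Lyz2 has the near-identical neighbour Lyz1, so reads there can be split. Lyz1 itself had 0.392 to 5.58 CPM per mouse.

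The RefSeq promoter windows of GRCm38.p6 were read for the letters AGGAAGT, or ACTTCCT on the other strand, which match the core bound by Ets factors such as PU.1, the master regulator of myeloid genes. The letters were picked after the sequences had been seen. The table held a window for 7 members that could be read, and 5 of them had the letters in the 250 bases before the gene start: Ptprc, Mrc1, C1qb, C1qc and Lyz2, but not Cd163 or Cd68. Counted by window, 6 of 8 windows of the members and 2525 of all 32851 (7.69%) held them, and since the letters were picked from the members' own sequences nothing is read from these shares. The stretches are printed 5′ to 3′ on the strand of the gene, with the letters in capitals, as a description. A link between the letters and the levels of the genes was not tested. The gene start is that of the RefSeq entry, which can differ from the gene limits given above: the letters begin 113 and 58 bases before it for Ptprc, whose stretches lie inside the limits above, 211 for Mrc1, 53 for C1qb, 195 for C1qc and 100 for Lyz2. A match is a string of letters and not a binding site.
Ptprc, chr1:138175401-138175429, minus strand: tacttgaattaAGGAAGTaagaagccatt
Ptprc, chr1:138175346-138175374, minus strand: ttttttttttaACTTCCTgcaaagaggac
Mrc1, chr2:14229192-14229220, plus strand: cacttctccccACTTCCTgcgttttctcc
C1qb, chr4:136886236-136886264, minus strand: caggacctgaaACTTCCTgagggcagcag
C1qc, chr4:136893092-136893120, minus strand: ggacggcagacACTTCCTcattttggcac
Lyz2, chr10:117282355-117282383, minus strand: gatcggtaggaACTTCCTgttttgcacac

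Across the 8 groups the medians of the members differed from 1.73-fold between the highest and the lowest group for Csf1r to 2.95-fold for C1qb. Locked control females had the highest median for 7 of the 10 genes, FH for 2 (Mrc1 and Csf1r) and MHE for 1 (Cd68). Locked control males had the lowest median for 7, and FCE for 3 (Cd68, Cd163 and Csf1r). When the groups were ordered by median, the ranges of neighbouring groups overlapped in all 7 places for 9 genes and in 6 of 7 for Mrc1, so the order between neighbours is within the spread of the mice.

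**Figure D1:**
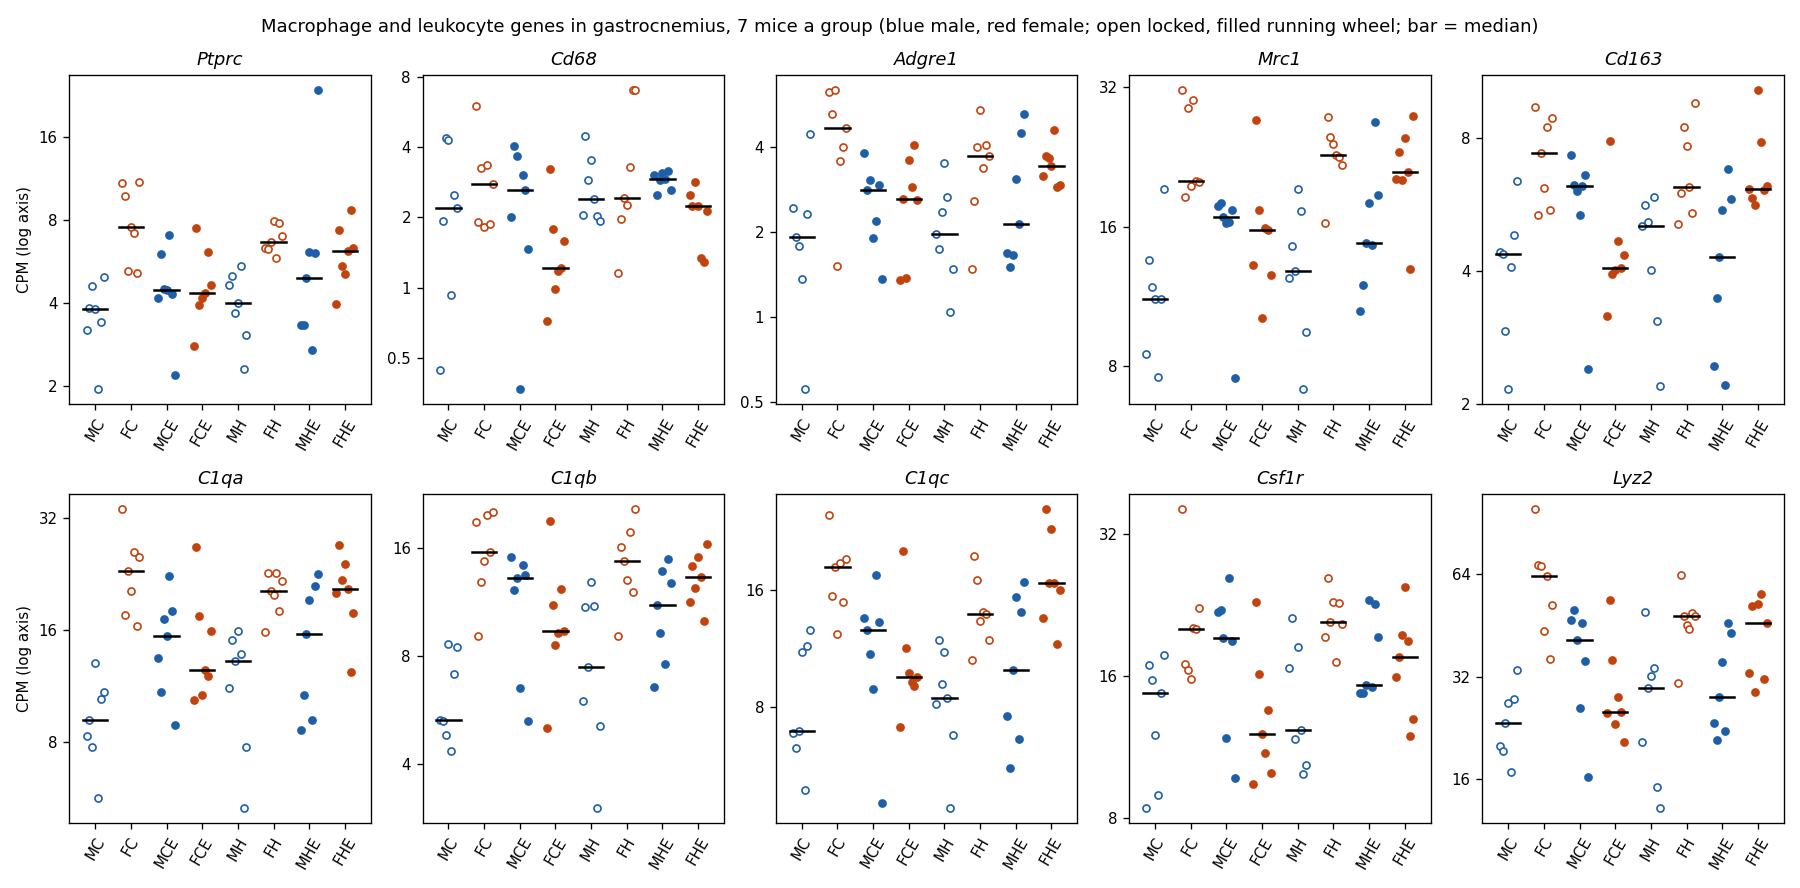
CPM of each of the 10 genes (log axis) in each of 56 mice by group, with blue for males, red for females, open circles for a locked wheel, filled circles for a running wheel and a bar at the group median. FC has the highest median for 7 genes and MC the lowest for 7, not all of them the same, the mouse MHE7 stands at 23.6 CPM for Ptprc, and for Cd68 the highest median is that of MHE.

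Sex was the factor that moved most members. Averaged over genotype and wheel, 8 of 10 members were higher in females by limma (adjusted p of 0.05 or less over 14321 genes), against 15.8% of all genes tested that were higher. The 8 were Ptprc, Adgre1, Mrc1, Cd163, C1qa, C1qb, C1qc and Lyz2, and their log2 fold changes ran up to 0.67 ± 0.11 (SE) for C1qa, or 1.59-fold with an interval of 1.36 to 1.86 and adjusted p = 2.13e-06. The median over the members was 0.58 against 0.00450 over all genes. Cd68 (-0.08 ± 0.20, adjusted p = 0.807) and Csf1r (0.19 ± 0.10, adjusted p = 0.160) did not pass. The calls of the 8 were kept in each of the 56 fits that left out 1 mouse.

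In locked control mice the sex difference was about the size of a doubling. Here 9 of 10 members were higher in females against 10.3% of all genes, with a median log2 fold change of 1.07 against 0.00732 over all genes, and Cd68 alone did not pass. The same comparison in locked HuR-labelled mice called 8 members higher, against 9.08% of all genes, with a median of 0.82, and left out Cd68 and Adgre1. That count fell to 5 without MH8 or without MH9. Sex by genotype, the test of whether the sex difference depended on genotype, was averaged over locked and running wheels. It called 0 members by limma (1 at an unadjusted p under 0.05, Cd163 with the lowest adjusted p at 0.596), as did DESeq2 and edgeR, against 0.00698% of all genes called in either direction. Whether the sex difference depended on genotype in locked mice alone was not tested.

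Of the C1q chains, C1qa and C1qb had sex ranges that did not overlap in locked controls. C1qa, which encodes the A chain, ran from 5.65 to 13.02 CPM in MC with a median of 9.18, and from 16.4 to 33.8 CPM in FC with a median of 23. The highest male was thus below the lowest female. The log2 fold change was 1.31 ± 0.24, or 2.47-fold with an interval of 1.77 to 3.46 (adjusted p = 4.05e-05 by limma, exact permutation p = 0.000583, which is the smallest that 7 against 7 allow).

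C1qb, the B chain, ran from 4.35 to 8.62 CPM in MC (median 5.31) and from 9.09 to 20.2 CPM in FC (median 15.6). Again no male reached the lowest female, and the fitted difference was 2.47-fold (interval 1.67 to 3.65, adjusted p = 0.000383). For C1qc, the C chain, MC held 4.91 to 12.6 CPM (median 6.95) and FC 12.3 to 24.9 CPM (median 18.4), with an overlap of the mice between 12.3 and 12.6 and a fitted difference of 2.10-fold (interval 1.47 to 3.004, adjusted p = 0.00146).

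Lyz2 had the largest fitted sex difference among the members in locked controls. It ran from 16.9 to 33.4 CPM in MC with a median of 23.4, and from 36.0 to 99.4 CPM in FC with a median of 63.2. No male overlapped a female, and the difference was 2.50-fold (interval 1.77 to 3.53, adjusted p = 5.69e-05, exact permutation p = 0.000583). In the locked HuR-labelled mice the ranges did overlap, with 13.2 to 49.4 CPM in MH and 30.6 to 63.5 CPM in FH, and the difference was 1.86-fold (interval 1.33 to 2.59, adjusted p = 0.00558).

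Ptprc encodes CD45, the phosphatase on all nucleated blood cells, and is the broadest leukocyte marker of the set. It ran from 1.95 to 4.98 CPM in MC (median 3.82) and from 5.15 to 10.99 CPM in FC (median 7.54). It was also apart in the HuR-labelled mice, with 2.31 to 5.43 CPM in MH (median 4.02) and 5.80 to 7.89 CPM in FH (median 6.63), so that no locked male reached a locked female of its genotype. The fitted differences were 2.10-fold (adjusted p = 0.00465) and 1.79-fold (adjusted p = 0.0209).

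Counted over the set, the locked control sexes did not overlap, with females higher, for 4 members (Ptprc, C1qa, C1qb and Lyz2), against 3.0% of all genes. In locked HuR-labelled mice this held for 1 member, Ptprc, against 1.58% of all genes.

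Of the scavenger receptors, Mrc1 (the mannose receptor, CD206) ran from 7.597 to 19.3 CPM in MC (median 11.2) and from 18.6 to 31.6 CPM in FC (median 20.1). One male of 19.3 CPM reached into the female range, and the difference was 1.99-fold (interval 1.46 to 2.69, adjusted p = 0.000556). Cd163, the receptor for haemoglobin bound to haptoglobin, ran from 2.15 to 6.41 CPM in MC (median 4.37) and from 5.36 to 9.42 CPM in FC (median 7.39). Its difference of 1.72-fold (adjusted p = 0.0211) was smaller and lost its call without FC12 (adjusted p = 0.0512) or without MC19 (adjusted p = 0.0682).

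Adgre1 ran from 0.556 to 4.45 CPM in MC and from 1.52 to 6.39 CPM in FC, with medians of 1.93 and 4.66. The ranges overlapped widely although the fitted difference was 2.09-fold (interval 1.28 to 3.40, adjusted p = 0.0232), and without MC20 the adjusted p was 0.102. Csf1r, the receptor for the growth factors CSF1 and IL-34, ran from 8.41 to 17.7 CPM in MC (median 14.8) and from 15.8 to 36.3 CPM in FC (median 20.2). Its difference of 1.54-fold (adjusted p = 0.0270) was the smallest of those called here and had an adjusted p of 0.108 without FC12. Cd68 ran from 0.442 to 4.37 CPM in MC and from 1.81 to 6.01 CPM in FC, and the estimate of 1.45-fold had an interval from 0.826 to 2.56 (adjusted p = 0.367).

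In running controls no member was called between the sexes. Limma called 0 members there, against 7.65% of all genes called in either direction, with 1 member (Csf1r) at an unadjusted p under 0.05, and DESeq2 and edgeR also called 0. The log2 fold changes ran from -0.63 for Cd68 to 0.03 for Adgre1. C1qa ran from 8.91 to 22.3 CPM in MCE (median 15.4) and from 10.4 to 26.7 CPM in FCE (median 12.5), which overlap over most of their length. Lyz2 likewise ran from 16.3 to 50.3 CPM in MCE (median 40.9) and from 20.5 to 53.7 CPM in FCE (median 25.2). In running HuR-labelled mice 2 members were higher in females, against 2.3% of all genes: Cd163 at 1.70-fold (adjusted p = 0.0418) and C1qc at 1.77-fold (adjusted p = 0.0207). Neither was called by DESeq2 or edgeR's quasi-likelihood test, and neither was called by limma without MHE1, without MHE2 or without MHE4.

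**Figure D2:**
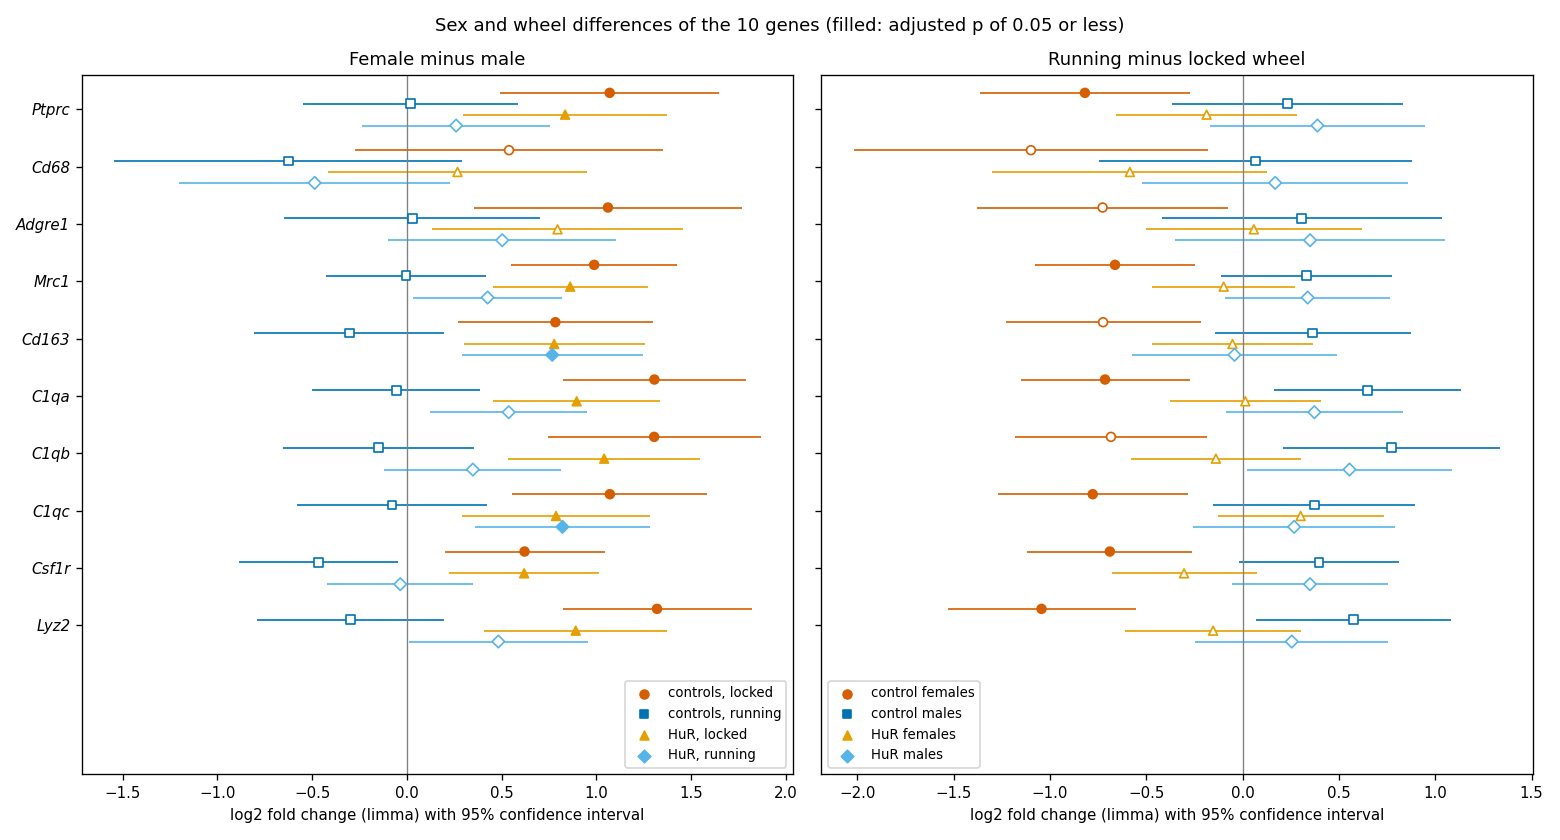
Log2 fold change by limma with its 95% confidence interval for each gene, females minus males on the left and running minus locked wheel on the right, each in 4 strata; filled symbols have an adjusted p of 0.05 or less. In locked controls 9 genes are filled to the right of 0, in running controls none is filled, and in control females 6 genes are filled to the left of 0 on the wheel side.

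The wheel estimates of the members had opposite signs in the control sexes, and the members called were in females. Averaged over sex and genotype, limma called 0 members between running and locked wheels (0 at an unadjusted p under 0.05), against 5.96% of all genes in either direction, and DESeq2 and edgeR called 0 as well. In control females 6 members were lower with a running wheel, against 4.23% of all genes that were lower: Ptprc, Mrc1, C1qa, C1qc, Csf1r and Lyz2. All 10 members had a negative estimate there, each with an unadjusted p under 0.05, and the median log2 fold change was -0.73 against 0.00668 over all genes. In control males limma called 0, against 3.24% of all genes in either direction, with 3 members at an unadjusted p under 0.05. All 10 estimates were positive in those males and the median was 0.37. The wheel comparison in control females and the sex comparison in locked controls share the FC mice.

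Lyz2 had the lowest adjusted p of the members in control females. From 36.0 to 99.4 CPM (median 63.2) in FC it went to 20.5 to 53.7 CPM (median 25.2) in FCE, with the ranges overlapping, and the running group was at 0.485 of the locked one (interval 0.346 to 0.680, adjusted p = 0.00435, exact permutation p = 0.00350). It kept its call in all 56 fits that left out 1 mouse, and it was the 1 member of the 6 to do so. Without FC12, which had the highest Lyz2 of all mice, the adjusted p was 0.0185.

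The other 5 calls were close to the threshold. C1qa went from a median of 23 CPM in FC to 12.5 CPM in FCE (10.4 to 26.7), at 0.610 of the locked level (interval 0.450 to 0.826, adjusted p = 0.0305). C1qc went from 18.4 to 9.55 CPM (7.12 to 20.1 in FCE), at 0.583 (adjusted p = 0.0361). Mrc1 went from 20.1 to 15.7 CPM (10.2 to 27.1 in FCE), at 0.632 (adjusted p = 0.0347).

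Csf1r fell from a median of 20.2 to 12.1 CPM (9.47 to 23.1 in FCE), at 0.620 (adjusted p = 0.0324), and Ptprc from 7.54 to 4.34 CPM (2.79 to 7.44 in FCE), at 0.567 (adjusted p = 0.0471). In each of these genes the ranges of FC and FCE overlapped. The count of 6 became 1 (Lyz2) without FC12, without FCE1, without FCE27 or without FCE28, became 2 without FC20, FC33 or FCE9, and became 3 without FC16. Among the members not called, the adjusted p was 0.0597 for Cd163, 0.0733 for C1qb, 0.126 for Cd68 and 0.157 for Adgre1.

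In control males C1qb had the lowest adjusted p at 0.122, with 4.35 to 8.62 CPM in MC and 5.29 to 15.1 CPM in MCE (medians 5.31 and 13.2), or 1.71-fold with an interval of 1.15 to 2.53. It was called by DESeq2 (adjusted p = 0.0107), by edgeR (adjusted p = 0.0399) and by limma without MCE5 (adjusted p = 0.0242). C1qa, at 1.57-fold (adjusted p = 0.134), was called by DESeq2 (adjusted p = 0.0423) and without MCE5 (adjusted p = 0.0483).

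Whether the wheel difference itself depended on sex was tested as a difference of differences. Averaged over genotype, 6 members had a lower wheel effect in females than in males, against 6.9% of all genes: Ptprc, Mrc1, C1qa, C1qb, Csf1r and Lyz2. The estimates on the log2 scale were -0.87 ± 0.20 for Csf1r (adjusted p = 0.00216), -1.08 ± 0.26 for C1qb (adjusted p = 0.00256) and -1.01 ± 0.24 for Lyz2 (adjusted p = 0.00283). Ptprc was the weakest of the 6 (adjusted p = 0.0357) and lost its call in 9 of the 56 fits that left out 1 mouse, without FC12 (adjusted p = 0.0543) among them, whereas the other 5 kept theirs in all 56.

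Within the controls alone, a comparison chosen after the values had been seen, 7 members passed, against 4.41% of all genes: Mrc1, Cd163, C1qa, C1qb, C1qc, Csf1r and Lyz2. Lyz2 had the largest estimate at -1.62 ± 0.35 (adjusted p = 0.00198), followed by C1qb at -1.46 ± 0.38 (adjusted p = 0.00909) and C1qa at -1.36 ± 0.33 (adjusted p = 0.00480). The count was 4 without FC12, without MC20 or without MCE10. Within HuR-labelled mice limma called 0 (2 at an unadjusted p under 0.05), against 1.35% of all genes in either direction, as did DESeq2 and edgeR. The estimates there ran from -0.75 for Cd68 to 0.03 for C1qc.

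In the HuR-labelled mice no member was called for the wheel. In HuR females limma called 0, against 3.85% of all genes in either direction, with 0 members at an unadjusted p under 0.05. Lyz2 ran from 30.6 to 63.5 CPM in FH (median 48.1) and from 28.9 to 55.8 CPM in FHE (median 45.9). C1qa had medians of 20.4 CPM in FH and 20.6 CPM in FHE, with a fitted ratio of 1.01 and an interval of 0.769 to 1.33. In HuR males limma called 0, against 0.0419% of all genes, with 1 member (C1qb) at an unadjusted p under 0.05. DESeq2 and edgeR called 0 in both. The median log2 fold change of the members was -0.12 in HuR females and 0.34 in HuR males.

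The genotype label was not accompanied by a called difference in any member. Averaged over sex and wheel, limma called 0, against 11.8% of all genes in either direction, with 1 member (Cd68) at an unadjusted p under 0.05 and log2 estimates from 0.00340 for Lyz2 to 0.44 for Cd68. It called 0 in locked males, against 1.15% of all genes, 0 in locked females, against 0.384%, 0 in running males, against 2.63%, and 0 in running females, against 0.0%. None of the members had an unadjusted p under 0.05 in the first 3 of these, and DESeq2 and edgeR called 0 in all 5 comparisons.

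In running females all 10 estimates were positive, 5 with an unadjusted p under 0.05, and the median was 0.52 on the log2 scale. C1qc ran from 7.12 to 20.1 CPM in FCE (median 9.55) and from 11.63 to 25.9 CPM in FHE (median 16.6), or 1.70-fold (interval 1.22 to 2.37, adjusted p = 0.172). Genotype by wheel called 0 members averaged over sex, against 0.00698% of all genes, 0 within females, against 0.0%, and 0 within males, against 0.0349%. In females 5 members had an unadjusted p under 0.05 in that test, and in the other 2 none did. DESeq2 and edgeR called 0 in all 3.

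Mice of a group that were high for one member tended to be high for the others. After the group means were removed, Pearson's r of log2(CPM + 0.5) over 56 mice ran from 0.211 to 0.857 in the 45 pairs with a median of 0.589, and Spearman's rho from 0.256 to 0.856. By permutation within groups, 43 pairs had an adjusted p of 0.05 or less over the 45 by Pearson's r and 44 by Spearman's rho, the smallest p that 100000 permutations can give being 1e-05. Leaving out for each pair the 2 mice farthest from the median of the first gene gave r from 0.260 to 0.830. All values of a mouse come from the same library, which the members share.

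The closest pair was C1qa with C1qc (r = 0.857, rho = 0.856, both permutation p = 1e-05, adjusted over the 45 pairs 2.14e-05 and 2.5e-05), chains of the same protein. Lyz2 with C1qc (r = 0.838) and Lyz2 with Mrc1 (r = 0.797) came next. The pair furthest from each other was Cd68 with Cd163 (r = 0.211). Against the mean of the other members, Cd68 had the lowest rank correlation at 0.535 and C1qc the highest at 0.877. In these values Cd68 fitted the common pattern least, in its sex difference and in its spread among mice. It also had the fewest counts of the members, with a median of 30.5. Adgre1, with the next fewest (35.5), had the next lowest rank correlation at 0.560. Counting error lowers such correlations, so the poor fit of Cd68 is not read as a trait of the gene.

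**Figure D3:**
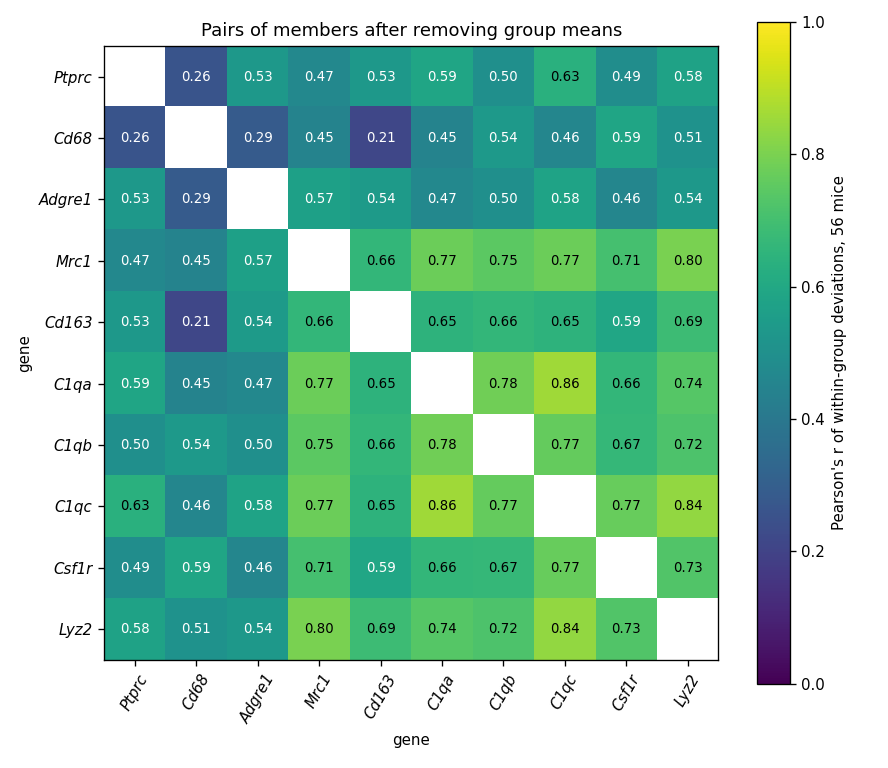
Pearson's r for each pair of the 10 genes over 56 mice after the mean of each group was taken out, from 0 (dark) to 1 (light), with r printed in each cell. The C1q genes, Mrc1, Csf1r and Lyz2 form a light block, with 0.86 for C1qa and C1qc, and the row of Cd68 is dark.

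Among all other genes tested, the 10 whose deviations were most like the mean of the members were F13a1 (rho = 0.873 over 56 mice), Pf4 (0.867), Mfap5 (0.836), Fcer1g (0.835), Bgn (0.826), Ctss (0.816), Tyrobp (0.802), Dab2 (0.795), Serping1 (0.790) and Emp3 (0.790). F13a1 and Pf4 are often expressed by resident macrophages, Fcer1g and Tyrobp encode signalling adaptors of myeloid cells, and Ctss encodes cathepsin S. Mfap5 and Bgn, in contrast, encode proteins of the extracellular matrix.

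Other macrophage genes followed the members in part. For the counts of this list and of the lists below, the shares over all genes are these. Averaged over genotype and wheel, 15.8% of all genes were higher in females and 2451 of 14321 lower. With a running wheel 4.23% were lower in control females. Of 21 that could be tested, 11 were higher in females averaged over genotype and wheel and 0 lower, with a median log2 fold change of 0.44 against 0.00450 over all genes. Ctss (0.69 ± 0.12, adjusted p = 7.62e-06), Ccr2, the chemokine receptor of recruited monocytes (0.69 ± 0.14, adjusted p = 4.41e-05), C3ar1, the receptor for C3a (0.69 ± 0.15, adjusted p = 0.000164), and Cybb, a subunit of the phagocyte oxidase (0.56 ± 0.13, adjusted p = 0.000297), had the lowest adjusted p. In control females 4 of the 21 were lower with a running wheel, Ctss among them (-0.97 ± 0.24, adjusted p = 0.00759), while C3ar1 (-0.49, adjusted p = 0.304) and Cybb (-0.28, adjusted p = 0.529) did not pass.

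Of 13 genes listed for resident macrophages, not all of them particular to those cells, 7 were higher in females and 1 lower, with a median of 0.39. Which cells the reads of Selenop and the others came from was not tested. Selenop, a selenium carrier (0.39 ± 0.07, adjusted p = 1.43e-05), F13a1, a clotting factor subunit (0.50 ± 0.10, adjusted p = 8.45e-05), and Folr2, a folate receptor (0.65 ± 0.14, adjusted p = 0.000119), were among the 7. The gene that was lower was Cbr2, a carbonyl reductase (-1.20 ± 0.09, adjusted p = 6.26e-17). In control females 7 of the 13 were lower with a running wheel and 0 higher.

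MHC class II genes, which present antigen on macrophages, dendritic cells and B cells, were higher in females in 5 of 6 and lower in 0 (median 0.60). H2-Aa was at 0.66 ± 0.11 (adjusted p = 4.16e-06) averaged over genotype and wheel. It was 1.29 ± 0.23 higher on the log2 scale in locked control females than in males (adjusted p = 2.09e-05), and -1.14 ± 0.23 with a running wheel in control females (adjusted p = 0.000937). In that wheel comparison 4 of the 6 were lower.

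The partners of C1q in the classical pathway were tested with 8 genes, of which 5 were higher in females and 0 lower (median 0.30). C3, the central component, was at 0.89 ± 0.10 (adjusted p = 3.37e-11), Serping1, the C1 inhibitor, at 0.33 ± 0.06 (adjusted p = 3.23e-05), and C1ra, a protease bound to C1q, at 0.40 ± 0.08 (adjusted p = 6.43e-05). In control females with a running wheel 4 were lower, with C3 at -0.78 ± 0.19 (adjusted p = 0.00556) and Serping1 at -0.64 ± 0.13 (adjusted p = 0.00107), and 1 was higher. The one that was higher, C1qbp, encodes a mitochondrial protein that was named for its binding of C1q.

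The growth factors and regulators around Csf1r did not move one way. Of 8 tested, 3 were higher in females and 2 lower, with a median of 0.05. Csf1, a ligand of the receptor, was higher (0.30 ± 0.08, adjusted p = 0.00181), as were Csf2ra (0.63 ± 0.14, adjusted p = 0.000420) and Spi1, which encodes PU.1 (0.37 ± 0.14, adjusted p = 0.0310). Irf8, a transcription factor of monocytes, was lower (-0.36 ± 0.10, adjusted p = 0.00373). Il34, the second ligand, had an estimate of -0.03 (adjusted p = 0.814). In control females 0 of the 8 passed for the wheel.

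Averaged over the other factors, 1 of 13 resident macrophage genes (Cbr2) and 1 of 8 genes around Csf1r (Maf) passed for genotype, where 11.8% of all genes did. For the wheel 1 of 21 other macrophage genes (Lgmn) passed, where 5.96% of all genes did. Cbr2 was higher (0.58 ± 0.09, adjusted p = 1.42e-05) and Maf, a transcription factor of macrophages, lower (-0.25 ± 0.05, adjusted p = 0.000206) in HuR-labelled mice. Lgmn, a lysosomal protease, was higher with a running wheel (0.32 ± 0.09, adjusted p = 0.0257).

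Markers of other cells moved with the members, and their part in the differences was not tested. All 7 fibroblast genes were higher in females averaged over genotype and wheel (median 0.61), among them Lum (0.77 ± 0.09, adjusted p = 3.81e-10) and Dpt (0.61 ± 0.07, adjusted p = 9.15e-10), and all 7 were lower with a running wheel in control females (median -0.77). Their summed level ran from 1223 to 2230 CPM in MC, 2670 to 5307 in FC, 1430 to 3005 in MCE and 1602 to 2476 in FCE. In HuR-labelled mice the sum ran from 1202 to 2372 CPM in MH, 2379 to 4120 in FH, 1676 to 2681 in MHE and 2162 to 2974 in FHE. Of 10 adipocyte genes 8 were higher in females (median 1.40), with Retn at 1.99 ± 0.16 and Cfd at 1.76 ± 0.16. Their sum was 2095 to 2634 CPM in MC, 3745 to 4215 in FC, 1728 to 2629 in MCE and 3034 to 3737 in FCE, so that in this sum no control male reached a control female in either wheel state. Which cells the reads of Car3 and the others came from was not tested, so the sum is not read as an amount of adipocytes. In HuR-labelled mice the sexes overlapped in both wheel states, with 1616 to 4075 CPM in MH, 3180 to 5751 in FH, 1757 to 4398 in MHE and 3483 to 5441 in FHE. The sum hides differences between its genes. By limma, averaged over genotype, the wheel effect was lower in females than in males for Retn (-1.255 on the log2 scale, adjusted p = 0.00608), Cfd (-1.229, 0.00688), Adipoq (-1.268, 0.0125) and Fabp4 (-0.427, 0.0242), against 6.9% of all genes. Car3 was at 0.036 (adjusted p = 0.921). Adrb3, Cidec, Lep, Plin1 and Pparg did not pass, but their estimates were negative too. Those of Lep (-1.169, adjusted p = 0.180), Plin1 (-0.808, 0.136) and Cidec (-0.801, 0.150) were larger in size than that of Fabp4.

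Of 7 erythroid genes 5 were higher in females (median 0.69), and in control females 4 were lower with a running wheel. The sum of the 7 ran from 746.7 to 1945 CPM in MC and from 1755 to 6394 CPM in FC. The 24 liver genes had a median of -2.87 in control females with a running wheel, with 5 lower, and summed to between 159.7 and 4441 CPM in FC against 49.2 to 252.3 CPM in FCE. Without FC15, the mouse with the highest liver sum, 7 of 10 members were called lower in that wheel comparison. FC12 ranked 2 among the FC mice for the liver sum (802 CPM) and for the erythroid sum (4978 CPM). Without FC12, 1 member was called lower in the same comparison. The part of liver and erythroid reads in the difference was not tested. All 5 mast cell genes that could be tested were higher in females (median 0.96), and 0 of them passed for the wheel.

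Of 7 endothelial genes 1 was higher and 2 were lower in females (median 0.01), where 2269 of all 14321 genes were higher and 2451 lower. In locked controls 0 of the 7 passed in either direction, where 3079 of all 14321 genes did. Of 8 skeletal muscle genes 1 was higher and 3 lower (median -0.09). Few genes of other leukocytes could be read: 2 of 12 neutrophil genes, 0 of 6 natural killer cell genes and 5 of 11 T cell genes were in the table, and the T cell receptor and CD3 chains were represented by Trac alone. Of 3 T cell genes tested 2 were higher in females, Thy1 (which fibroblasts also express) at 0.78 ± 0.11 and Cd2 at 1.13 ± 0.27. Of 2 B cell genes tested, Ighm was lower (-0.71 ± 0.15, adjusted p = 0.000105).

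Of the other lists, 1 of 2 Kupffer cell genes tested, Vsig4, was higher in females (1.02 ± 0.38, adjusted p = 0.0321), as was 1 of 5 microglia genes, Tmem119 (0.81 ± 0.13, adjusted p = 1.33e-06). Of 3 dendritic cell genes 1 was lower, Zbtb46 (-0.46 ± 0.08, adjusted p = 2.74e-06), and 0 of 2 neutrophil and 0 of 6 Schwann cell genes passed. Since 15.8% of all genes were higher and 2451 of 14321 lower, nothing is read from such small counts.

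**Figure D4:**
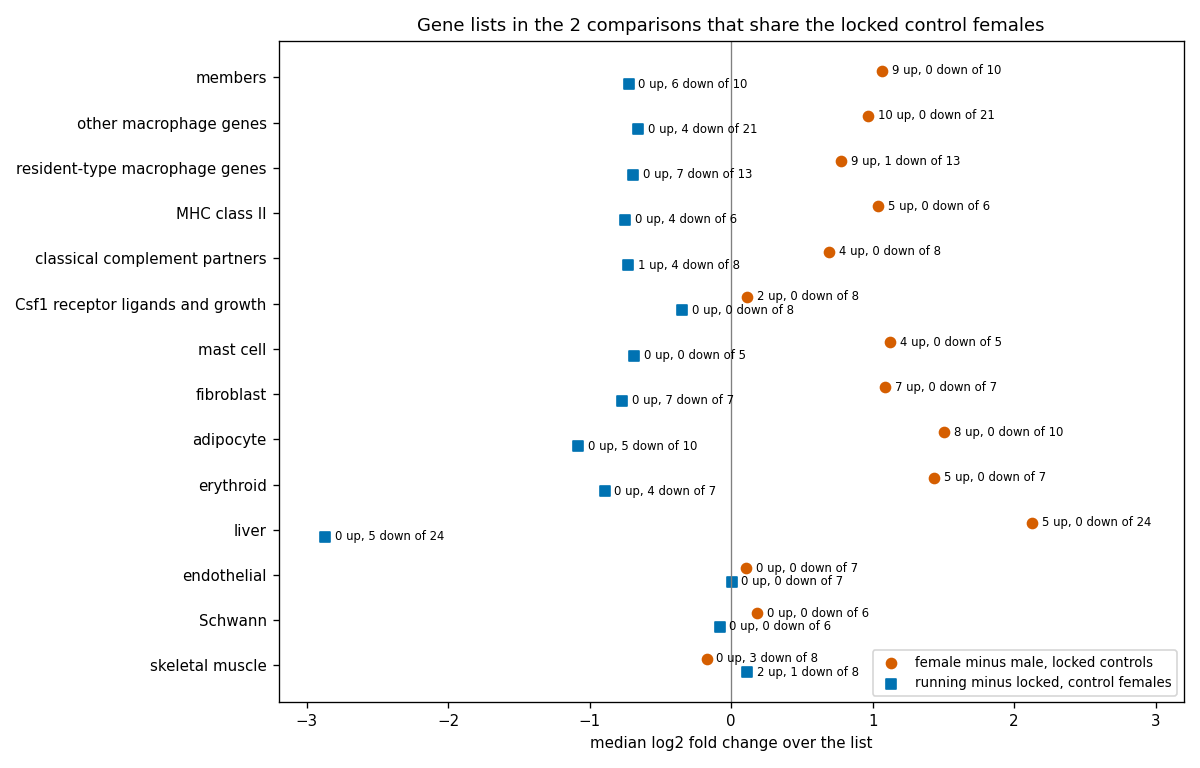
Median log2 fold change over each gene list for females minus males in locked controls (circles) and running minus locked wheel in control females (squares), with the number of genes higher and lower among those tested. Both comparisons use the FC mice. The members stand at 1.07 and -0.73, the fibroblast list at 1.09 and -0.77, and the endothelial and Schwann lists near 0.

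Single mice carried part of the spread. MHE7 had 23.6 CPM of Ptprc, whereas the other 6 mice of MHE had at most 6.11 CPM and the highest of all other mice, FC33, had 10.99 CPM. The same mouse had 7.31 CPM of Pax5, 10.97 CPM of Ms4a1 and 41.1 CPM of Igkc, all of them B cell genes whose highest values in the other 55 mice were 1.72, 2.57 and 10.6 CPM. It also had the highest Marco and Timd4, scavenger receptors of some tissue macrophages, at 13.02 and 6.17 CPM against at most 1.52 and 1.91 CPM elsewhere, whereas Vsig4, the other gene of the Kupffer cell list in the table, was at 0.343 CPM against up to 3.35 CPM elsewhere. Its sums of 5 T cell genes (24.7 CPM) and of 2 neutrophil genes (6.85 CPM) were the highest of all 56 mice. Its C1qa (22.6 CPM), C1qc (16.8 CPM) and Adgre1 (5.25 CPM) were the highest of its group, but lay within the range of the other groups.

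**Figure D5:**
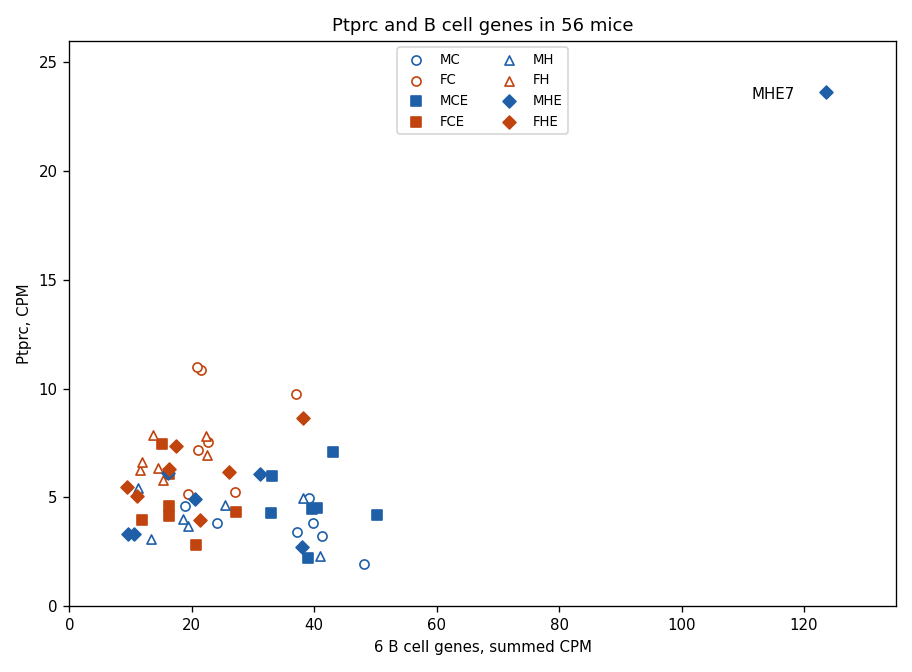
Ptprc in CPM against the summed CPM of 6 B cell genes in each of 56 mice, by group. The mouse MHE7 stands apart at 123.6 CPM of B cell genes and 23.6 CPM of Ptprc, and the other 55 mice lie at or below 50.2 and 10.99 CPM.

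Without MHE7 the 8 members called between the sexes averaged over genotype and wheel stayed 8, and Ptprc was at 0.61 on the log2 scale (adjusted p = 2.26e-05). FC12 was the highest FC mouse for 7 of 10 members, with 99.4 CPM of Lyz2, 36.3 CPM of Csf1r and 33.8 CPM of C1qa, and it had the highest sum of MHC class II genes of all mice at 341.3 CPM. Without it 6 members were called between locked control sexes, and C1qa kept its call (adjusted p = 0.000227).

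FCE25 was the highest FCE mouse for 9 of 10 members, and the sum of its fibroblast genes was also the highest of that group at 2476 CPM. MCE5 was the lowest MCE mouse for 9 of 10, with 7.54 CPM of Mrc1 against at least 16.3 CPM in the other 6, and it had the lowest fibroblast sum (1430 CPM) and the highest muscle sum (113600 CPM) of its group. MC20 was the lowest MC mouse for 7 of 10.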

How the data were processed

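RNA of gastrocnemius from 56 mice was analysed from 1 table of raw read counts per gene that the authors deposited without normalization. The submitters' notes name R (4.0.3), edgeR (3.38.4) and GRCm38 (mm10). The aligner and the counter are not given in the sources used here. The labels describe a kit for 3′ ends and the study's methods stranded total RNA. Genes with few reads were already absent: the smallest total of a gene was 168. Of 15539 genes 15503 matched GENCODE M21, used for symbols and GRCm38 coordinates.

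Counts were normalized by TMM in edgeR (4.0.16), filtered with filterByExpr to 14321 genes and fitted with voom and limma (3.58.1) in R 4.3.3 over all 56 mice in 8 groups, and genes were called at 0.05 after Benjamini-Hochberg adjustment within each comparison. Single values were compared by two-sided exact permutation of log2(CPM + 0.5), 7 mice against 7. P-values measure the spread between mice. DESeq2 (1.42.0), edgeR's quasi-likelihood test, other scalings, filters and weights, blocking by animal number, fits of the compared groups alone and fits without each mouse were alternatives. The labels of all samples gave a group, and 0 columns were left unmapped. The members, lists and tests were chosen with earlier results of these data known. From the lists, up to 4 genes with the lowest adjusted p in a comparison averaged over the other factors were named; C1qbp and the genes of MHE7 were named after their values were seen. Some listed genes are not reported here by name. Interactions within 1 genotype or 1 sex were added after seeing the data.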

Additional observations from a re-analysis of the deposited data

Results flagged for a closer look

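In 9 of 80 combinations of gene and group the highest or lowest of the 7 mice stood further from its neighbour than Dixon's criterion allows. The criterion's rate of about 1 in 20 holds for normal values and independent tests. It was applied here to CPM without logs, and the members vary together, so the 9 are not set against that rate. FCE25 was the high mouse for Cd68 (3.21 CPM), Mrc1 (27.1 CPM), Cd163 (7.88 CPM) and C1qc (20.1 CPM). FC12 was high for Cd68 (6.01 CPM) and Csf1r (36.3 CPM), and MHE7 for Ptprc (23.6 CPM). MCE5 was low for Mrc1 (7.54 CPM) and Cd163 (2.40 CPM).

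The wheel effect of females minus that of males, tested by limma, differed in both genotypes together for Csf1r (-0.87 on the log2 scale), Ptprc (-0.81), Mrc1 (-0.71), C1qa (-0.86), C1qb (-1.08) and Lyz2 (-1.01). In controls alone it differed for Cd163 (-1.09), Csf1r (-1.09), Mrc1 (-0.99), C1qa (-1.36), C1qc (-1.15), C1qb (-1.46) and Lyz2 (-1.62).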

How the results depend on the processing

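No member changed direction past the threshold under any alternative that was run. The count of members called changed by over 1.5 times in 2 comparisons under another tool or weighting: between the sexes with running wheels in HuR-labelled mice it was 2 by limma and 0 by DESeq2 and by edgeR, and for the wheel in control males it was 0 by limma, 2 by DESeq2, 1 by edgeR and 2 with sample quality weights. With 1 mouse left out in turn, the members called ran from 6 to 9 between the sexes in locked controls, 5 to 9 in locked HuR-labelled mice, 0 to 2 in running HuR-labelled mice, 0 to 1 in running controls, 1 to 8 for the wheel in control females, 0 to 2 in control males, 5 to 8 for sex by wheel and 4 to 8 for sex by wheel in controls. The lowest count in locked HuR-labelled mice, 5, came without MH8 or without MH9, and the cause was not tested. For single genes, 10 calls were lost and 13 gained under other settings, and 116 lost and 20 gained without 1 mouse. Animal numbers shared between the sexes do not pair the mice: deviations of same-numbered mice correlated from -0.184 to 0.187, and MH and FH share none. With the number as a replicate block (consensus correlation 0.0222) the members called stayed 8 for sex, 9 in locked controls and 6 for the wheel in control females. Counts over all genes moved more. They were 165 by limma and 38 to 405 otherwise for genotype in locked males, 55 and 0 to 169 in locked females, 376 and 223 to 1037 in running males, and 0 and up to 71 in running females. For genotype by wheel they were 1 and 0 to 22 (0 and up to 11 within females, 5 and 0 to 34 within males), and for sex by genotype 1 and up to 8. For sex by wheel in HuR-labelled mice they were 193 and 76 to 331, and for sex in locked HuR-labelled mice 2763 and, with the compared groups alone, 1739. For the wheel they were 551 and 161 in HuR females, 6 and 2 to 226 in HuR males, 464 and 1046 in control males, and 854 and 1331 averaged over the other factors. With upper-quartile scaling the genes higher and lower became 46 and 55 in place of 46 and 119 for genotype in locked males, 32 and 27 in place of 18 and 37 in locked females, 821 and 886 in place of 634 and 1061 averaged over the other factors, and 553 and 530 in place of 442 and 654 for sex in running controls. No library passed 5 scaled deviations in the liver genes, so the fit without such libraries was not run. Depth limits Cd68 and Adgre1 most, with medians of 30.5 and 35.5 counts.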
